A study of Rattus norvegicus with 12 samples.

Results

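Ribosome biogenesis and nucleolar genes were followed in rat vascular smooth muscle cells (RVSMCs) treated with angiotensin II (AngII). A list of 40 genes was set by name, namely the proteins of the snoRNPs, nucleolar chaperones, factors that process the small and the large ribosomal subunit, RNA polymerase I (Pol I) with its nucleolar regulators, and *Myc*. Of these 40 genes, 33 had a probe set with their symbol on the array, 1 each, among 15037 named genes of the whole array, and all 33 passed the signal filter. *Nhp2*, *Npm3*, *Nop14*, *Rrp12*, *Wdr75*, *Nat10* and *Tsr1* had no named probe set and were not analysed here.

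The donors of the cells were male Sprague-Dawley rats aged 12 weeks, whose thoracic aortas had been stripped of endothelium, and biotin-labelled cDNA made from the total RNA of the cells was put on Clariom S rat arrays. All cells were transfected for 48 h with 100 nM of a GapmeR, a short antisense strand through which RNase H cuts the RNA it pairs with. The GapmeR was *Alivec*Gap, directed at the long noncoding RNA *Alivec*, or NCGap, a non-targeting control, and the cells were serum depleted and then given 100 nM AngII or PBS for 3 h. The 4 groups of 3 arrays each were *Alivec*Gap with AngII, NCGap with AngII, *Alivec*Gap with PBS and NCGap with PBS. The replicates are called independent, but whether they came from separate rats is not given in the sources used here, so that p values measure the spread between the arrays of a group. No probe set carried the name *Alivec*, and its level was not analysed here.

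The arrays were alike in scale, with median log2 signals of 6.68 to 6.76. Of the smooth muscle markers, 8 of 8 were measured and none had a mean log2 signal under 6, the minimum used here for expression, with *Tagln* at 13.10 and *Acta2* at 12.43. Of these 8, *Myh11*, *Smtn* and *Lmod1* were lower and *Myocd* was higher with AngII under each GapmeR. In *Alivec*Gap against NCGap none of the 8 was called, but 7 differences were below 0 with AngII and 8 with PBS. An unadjusted p under 0.05 was found for 2 with AngII and 3 with PBS, beside 11.6% and 9.64% of all probe sets. The mean over the smooth muscle markers was 10.74 to 10.84 on arrays of *Alivec*Gap with AngII, 10.88 to 10.91 with NCGap and AngII, 10.78 to 10.94 with *Alivec*Gap and PBS and 10.94 to 11.02 with NCGap and PBS. Means under 6 were found for 7 of 8 endothelial markers (*Pecam1*, *Cdh5* and *Vwf* among them), 6 of 7 leukocyte markers (*Ptprc* among them) and 2 of 3 Schwann cell markers, but for only 1 of 7 adventitial fibroblast markers. The mean over the adventitial markers was 7.90 to 7.99 on arrays of *Alivec*Gap with AngII, 7.69 to 7.84 with NCGap and AngII, 8.08 to 8.16 with *Alivec*Gap and PBS and 7.92 to 8.00 with NCGap and PBS. Of 6 adventitial markers tested, 2 were lower with AngII under each GapmeR, beside 15.6% (*Alivec*Gap) and 17.9% (NCGap) of all probe sets. In AngII-treated cells 2 were higher with *Alivec*Gap than with NCGap, beside 0.338% of all probe sets. The part of these markers and of such cells in the results below was not tested, and in these bulk samples fewer cells of a type and less RNA per cell cannot be told apart.

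Ribosomes are assembled in the nucleolus. Pol I transcribes the precursor of the ribosomal RNAs there, box C/D and box H/ACA snoRNPs guide its methylation and pseudouridylation, and separate sets of assembly factors fold, cleave and export the 40S and the 60S subunit. *Myc* encodes a transcription factor that binds the E-box CACGTG together with Max and is known for its activity on genes of this pathway in growing cells. AngII is a peptide hormone that constricts vessels and drives growth and protein synthesis in VSMCs.

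The letters of the E-box are shown in the promoters because *Myc* and many of these genes moved in the same direction with AngII, as described below. RefSeq promoter windows of 250 bases before and 50 bases after the start of transcription (build GRCr8) were found for 36 of the 40 genes and not for *Myc*, *Rrs1*, *Bop1* and *Wdr43*. CACGTG, which reads the same on both strands, was found in 16 of 36 windows (44.4%), against 6.42% of all 33469 windows and 7.83% of the 12924 windows of genes with a named probe set. The variant CACGCG, searched on both strands and thus also as CGCGTG, cannot share bases with CACGTG and was found in 13 of 36 windows (36.1%), against 8.5% of all windows and 13.2% of those with a named probe set. Such a match describes the letters only, and binding was not measured. The 250 bases before the start of *Gnl3*, a nucleolar GTPase of the 60S pathway, and *Utp4*, a subunit of the small subunit processome, carried both motifs close to the start. Both promoters are examples, and the number of genes that carry both motifs was not counted. The bases are given 5′ to 3′ on the strand of the gene, with CACGTG and the variant in capitals.
Gnl3 (chr16:6219783-6220032, minus strand): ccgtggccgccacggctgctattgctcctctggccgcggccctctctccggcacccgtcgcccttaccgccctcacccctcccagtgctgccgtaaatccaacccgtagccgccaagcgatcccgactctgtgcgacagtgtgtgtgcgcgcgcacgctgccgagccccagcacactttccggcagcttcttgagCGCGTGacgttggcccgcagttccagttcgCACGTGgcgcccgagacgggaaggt
Utp4 (chr19:51701991-51702240, plus strand): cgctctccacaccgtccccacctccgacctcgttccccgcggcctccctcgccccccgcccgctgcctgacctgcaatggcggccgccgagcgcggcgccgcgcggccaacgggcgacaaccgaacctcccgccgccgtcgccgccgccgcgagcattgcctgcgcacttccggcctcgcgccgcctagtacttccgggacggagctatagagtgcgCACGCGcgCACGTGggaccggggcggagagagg
In both promoters CACGTG began 25 bases before the start. The variant began at base -55 in *Gnl3* and at base -33 in *Utp4*.

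The other 9 genes with a measured level and a CACGTG match are shown as the motif in capitals with up to 10 bases on either side. The stretch of *Nop2* is shorter because it ends at the edge of its window.
Mybbp1a (chr10:57555292-57555317, plus strand): agtttctacaCACGTGtgcgagcaca
Mybbp1a (chr10:57555447-57555472, plus strand): ctttcgagccCACGTGtttggttcag
Fbl (chr1:92597418-92597443, plus strand): cgcttttttcCACGTGtgaaagcctg
Nop2 (chr4:159618994-159619015, plus strand): tccccaagtgCACGTGgagcgg
Noc3l (chr1:245997675-245997700, minus strand): gagctctgggCACGTGtgtgtttcct
Bysl (chr9:20880363-20880388, plus strand): gccggcttcaCACGTGtaaactttgt
Utp20 (chr7:25102961-25102986, minus strand): gcactagctaCACGTGagaaaaagca
Dkc1 (chrX:157751457-157751482, plus strand): cgtcccggcgCACGTGcgggccccac
Ltv1 (chr1:9398603-9398628, minus strand): cctgtctaccCACGTGtagagctgcc
Pes1 (chr14:83074286-83074311, plus strand): ctaagcggggCACGTGcggtaggaag
The 17 matches of the 16 genes lay between base -184 (*Dkc1*) and base 39 (*Nop2*), 10 before and 7 after the start, and 13 of them began within 65 bases of it. *Mybbp1a* held 2 matches, which began at bases -156 and -1. CACGTG was found in 9 of the 21 genes with a window that were higher with AngII under NCGap (42.9%) and in 2 of the 8 that were tested and not called (25.0%). The other 5 genes with a match had no named probe set.

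**Figure D1:**
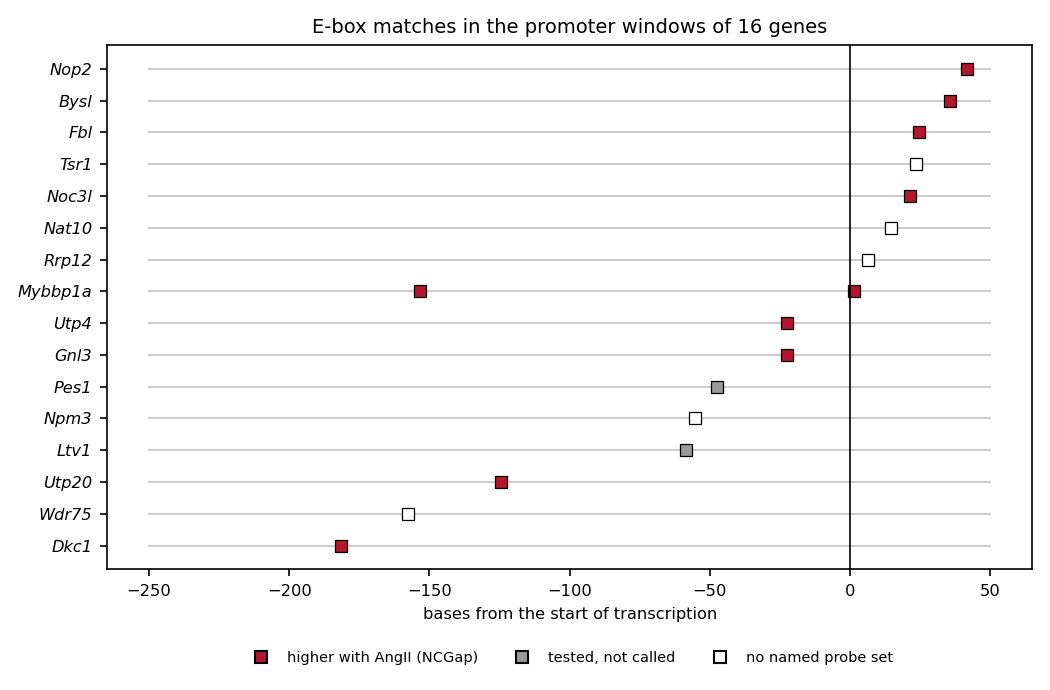
Positions of the E-box in the RefSeq promoter windows of the 16 genes that hold it. The horizontal axis gives bases from the start of transcription, each gray line is the window of a gene, and squares mark matches (red, higher with AngII under NCGap; gray, tested and not called; open, no named probe set). Of the 17 matches, 13 began within 65 bases of the start.

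To find how these genes responded to AngII, AngII was compared with PBS under each GapmeR. With *Alivec*Gap, 19 of 33 genes were higher with AngII and none was lower at a Benjamini-Hochberg adjusted p under 0.05 (limma), whereas 10.8% of all 14796 tested probe sets were higher and 15.6% were lower. An unadjusted p under 0.05 was found for 25 of 33, all higher, beside 14.5% of all probe sets. By the rule of the study, which asks for 1.2-fold or more with an unadjusted p under 0.05 (the study thresholds), 20 of 33 were higher, beside 11% of all probe sets. In 25 of 33 genes the 3 AngII arrays were all above the 3 PBS arrays, as in 16.9% of all probe sets. The median log2 change was 0.32 over the 33 genes and -0.04 over all probe sets.

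With NCGap, 25 of 33 genes were higher with AngII and none was lower, whereas 13.3% of all probe sets were higher and 17.9% were lower. An unadjusted p under 0.05 was found for 26 of 33, all higher, beside 16.4% of all probe sets. With the arrays centred on the same median, the split over all probe sets under NCGap was 2309 higher and 1836 lower, against 1968 and 2652 as deposited, and 26 of the 33 genes were higher. At the study thresholds 23 of 33 were higher, beside 12.9% of all probe sets. In 29 of 33 genes the AngII arrays were all above the PBS arrays, as in 17% of all probe sets. The median log2 change was 0.44 over the 33 genes and -0.05 over all probe sets, with a range of -0.00 (*Nob1*) to 1.00 (*Myc*). All 19 genes called with *Alivec*Gap were also higher under NCGap. The 6 genes called under NCGap and not under *Alivec*Gap were *Gar1*, *Dkc1*, *Mybbp1a*, *Noc2l*, *Utp20* and *Fbl*, and 8 genes were called under neither GapmeR (*Ncl*, *Npm1*, *Nob1*, *Ltv1*, *Ddx10*, *Nop16*, *Pes1* and *Polr1a*).

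**Figure D2:**
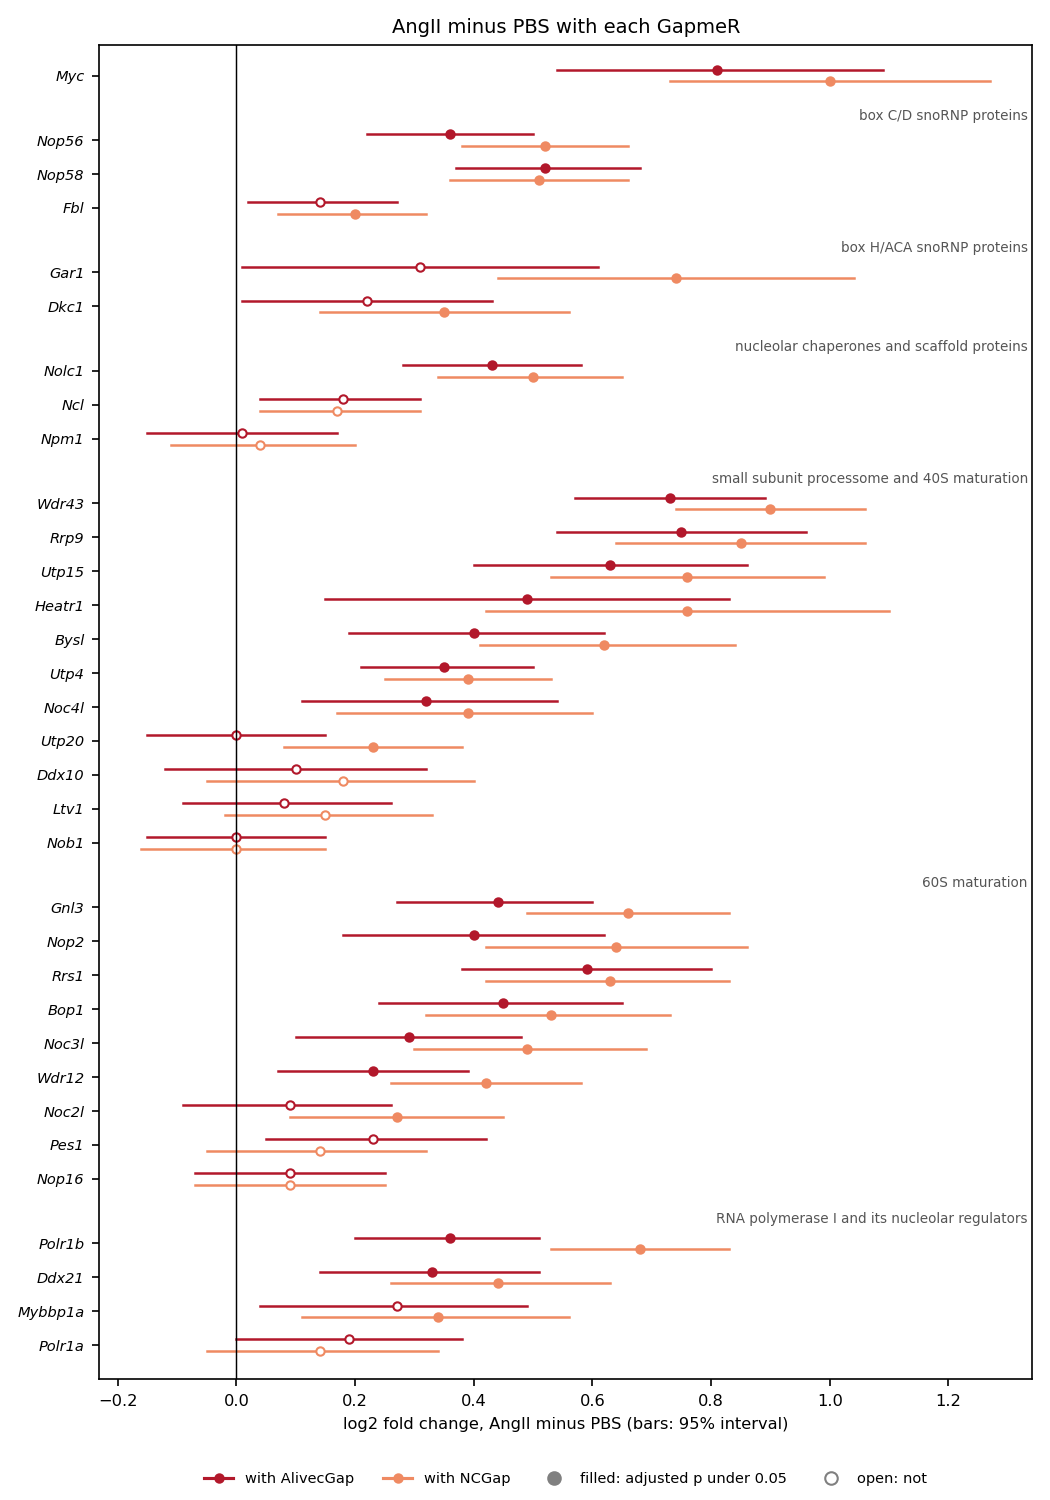
AngII effect on each of the 33 genes, by role. The horizontal axis gives the log2 fold change of AngII over PBS, points are estimates with *Alivec*Gap (dark red, above) and NCGap (orange, below), bars are 95% intervals, and filled points have an adjusted p under 0.05. The 19 filled dark red points and the 25 filled orange points all lie right of 0.

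An array of NCGap with PBS, replicate 2, was the lowest of the 12 arrays for 16 of the 33 genes, and no other array was the lowest for more than 6. The highest array was an AngII array for 32 of them. Without NCGap PBS replicate 2, 20 of 33 genes were higher with AngII under *Alivec*Gap and 22 of 33 under NCGap.

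*Myc* had log2 signals of 8.97, 9.07 and 9.00 in AngII-treated cells with *Alivec*Gap, against 8.19, 8.33 and 8.08 in PBS-treated cells. With NCGap its signals were 8.88, 9.07 and 9.19 with AngII, against 8.15, 7.73 and 8.24 with PBS. All 6 AngII arrays were above all 6 PBS arrays, and NCGap PBS replicate 2 was the lowest. The log2 change was 0.81 (SE 0.125, adjusted p = 0.00048), or 1.76-fold, with *Alivec*Gap and 1.00 (SE 0.125, adjusted p = 7.1e-05), or 2-fold, with NCGap.

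The box C/D snoRNP proteins, which carry out the methylation of ribosomal RNA, were higher with AngII in 2 of 3 genes under *Alivec*Gap and in 3 of 3 under NCGap. *Nop56*, a core scaffold protein of the particle, had log2 signals of 11.04, 11.07 and 10.98 with AngII and *Alivec*Gap, against 10.66, 10.58 and 10.76 with PBS and *Alivec*Gap. With NCGap, the signals of *Nop56* were 11.16, 11.08 and 11.14 with AngII, against 10.61, 10.63 and 10.58 with PBS. The AngII and PBS arrays were well apart under both GapmeRs, by a log2 change of 0.36 (SE 0.0643, adjusted p = 0.0014) with *Alivec*Gap and of 0.52 (SE 0.0643, adjusted p = 6.9e-05) with NCGap. Its partner *Nop58* gave 11.28, 11.28 and 11.33 with AngII and *Alivec*Gap, against 10.77, 10.75 and 10.81 with PBS and *Alivec*Gap. In NCGap cells *Nop58* gave 11.18, 11.27 and 11.39 with AngII, against 10.75, 10.86 and 10.69 with PBS. The changes of *Nop58* were nearly equal, at 0.52 (SE 0.0701, adjusted p = 0.00018) with *Alivec*Gap and 0.51 (SE 0.0701, adjusted p = 0.00016) with NCGap. *Fbl*, the methyltransferase itself, had a value of 0.14 with *Alivec*Gap, which did not pass the test (adjusted p = 0.087), and was higher by 0.20 (SE 0.0572, adjusted p = 0.021) with NCGap. Its call was kept in 14 of 20 alternatives and lost, among others, without NCGap PBS replicate 1 (adjusted p = 0.063) and without NCGap AngII replicate 1 (0.051), 2 (0.061) or 3 (0.05).

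Of the box H/ACA snoRNP proteins, which make pseudouridine, 0 of 2 measured genes were called with AngII under *Alivec*Gap, where both had an unadjusted p under 0.05 and 1 passed the study thresholds, and 2 of 2 were higher under NCGap. *Gar1*, a small core protein, had log2 signals of 6.90, 6.94 and 6.90 with AngII and *Alivec*Gap, against 6.87, 6.48 and 6.46 with PBS and *Alivec*Gap. The NCGap arrays of *Gar1* gave 6.75, 7.10 and 7.02 with AngII, against 6.14, 6.02 and 6.48 with PBS. All AngII arrays but 1 were above all PBS arrays, the exception being NCGap AngII replicate 1, which was below *Alivec*Gap PBS replicate 1. The log2 change of *Gar1* was 0.31 with *Alivec*Gap (SE 0.137, adjusted p = 0.12), and without *Alivec*Gap PBS replicate 1 it was 0.44 with an adjusted p of 0.038. With NCGap *Gar1* was 1.67-fold higher (log2 change 0.74, SE 0.137, adjusted p = 0.0014).

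*Dkc1*, the pseudouridine synthase, had log2 signals of 10.18, 10.30 and 10.41 with AngII and *Alivec*Gap, against 9.99, 10.06 and 10.18 with PBS and *Alivec*Gap. Its signals with NCGap were 10.35, 10.43 and 10.33 with AngII, against 9.97, 9.87 and 10.23 with PBS. The groups touched with *Alivec*Gap, where the change was 0.22 (SE 0.0975, adjusted p = 0.12), and were apart with NCGap, where it was 0.35 (SE 0.0975, adjusted p = 0.016). The call with NCGap was lost without NCGap PBS replicate 1 (adjusted p = 0.058), without NCGap PBS replicate 2 (adjusted p = 0.062) and without NCGap AngII replicate 2 (adjusted p = 0.059).

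Of the 3 measured nucleolar chaperones and scaffold proteins, only *Nolc1* was higher with AngII, under both GapmeRs. *Nolc1*, a chaperone of snoRNPs, had log2 signals of 10.89, 11.01 and 10.97 with AngII and *Alivec*Gap, against 10.43, 10.57 and 10.59 with PBS and *Alivec*Gap. With NCGap it had 11.00, 11.03 and 11.01 with AngII, against 10.57, 10.42 and 10.56 with PBS. The arrays of the treatments did not overlap, and the change was 0.43 (SE 0.0696, adjusted p = 0.00077) with *Alivec*Gap and 0.50 (SE 0.0696, adjusted p = 0.00019) with NCGap. *Ncl*, the abundant RNA-binding protein nucleolin, gave 11.87, 11.76 and 11.76 with AngII and *Alivec*Gap, against 11.64, 11.61 and 11.61 with PBS and *Alivec*Gap. In NCGap cells *Ncl* gave 11.74, 11.77 and 11.78 with AngII, against 11.61, 11.66 and 11.51 with PBS. The AngII arrays of *Ncl* were all above the PBS arrays, by 0.18 (SE 0.0628, adjusted p = 0.059) with *Alivec*Gap and 0.17 (SE 0.0628, adjusted p = 0.055) with NCGap, just short of the threshold. Without NCGap PBS replicate 3 the adjusted p with *Alivec*Gap was 0.045, and without NCGap PBS replicate 2 that with NCGap was 0.042. *Npm1*, nucleophosmin, differed by 0.01 (95% interval -0.15 to 0.17) with *Alivec*Gap and by 0.04 (-0.11 to 0.20) with NCGap.

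The small subunit processome, the particle in which the precursor RNA is folded and cleaved, and the factors of 40S maturation were higher with AngII in 7 of 11 genes under *Alivec*Gap and in 8 of 11 under NCGap. *Wdr43*, a subunit that binds the nascent precursor, had log2 signals of 10.70, 10.78 and 10.80 with AngII and *Alivec*Gap, against 10.01, 9.90 and 10.18 with PBS and *Alivec*Gap. Its signals with NCGap were 10.90, 10.83 and 10.90 with AngII, against 9.97, 10.00 and 9.97 with PBS. *Wdr43* had the smallest p of the 33 genes in both comparisons, with a change of 0.73 (SE 0.0743, adjusted p = 2e-05) with *Alivec*Gap and 0.90 (SE 0.0743, adjusted p = 2.5e-06) with NCGap. *Rrp9*, a protein of the U3 snoRNP, gave 9.76, 9.86 and 9.84 with AngII and *Alivec*Gap, against 9.00, 9.06 and 9.16 with PBS and *Alivec*Gap. *Rrp9* gave 9.80, 9.88 and 9.97 with AngII and NCGap, against 9.14, 8.79 and 9.17 with PBS and NCGap. All AngII arrays were above all PBS arrays, and *Rrp9* was 1.68-fold higher with *Alivec*Gap (log2 change 0.75, SE 0.0978, adjusted p = 0.00015) and 1.8-fold higher with NCGap (0.85, SE 0.0978, adjusted p = 4e-05).

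Of the other genes of the group, *Utp15*, *Heatr1*, *Bysl*, *Noc4l* and *Utp4* were higher with both GapmeRs, *Utp20* with NCGap and not with *Alivec*Gap, and *Ddx10*, *Nob1* and *Ltv1* with neither. *Utp15* and *Heatr1*, which act with *Wdr43* and *Utp4* in the complex that joins transcription and processing, changed by 0.63 and 0.49 with *Alivec*Gap, and each by 0.76 with NCGap. *Bysl*, a factor of 40S maturation, changed by 0.40 with *Alivec*Gap (adjusted p = 0.0092) and by 0.62 with NCGap (adjusted p = 0.00042). *Noc4l* changed by 0.32 with *Alivec*Gap and by 0.39 with NCGap. The call of *Heatr1* with *Alivec*Gap was kept in 14 of 20 alternatives and lost, among others, without *Alivec*Gap PBS replicate 1 (adjusted p = 0.1), 2 (0.095) or 3 (0.067) and without *Alivec*Gap AngII replicate 2 (0.089) or 3 (0.13). That of *Noc4l* was kept in 15 of 20 and lost, among others, without *Alivec*Gap PBS replicate 1 (0.073) or 2 (0.1) and without *Alivec*Gap AngII replicate 1 (0.054) or 3 (0.11). *Utp4* had log2 signals of 11.22, 11.13 and 11.23 with AngII and *Alivec*Gap, against 10.78, 10.84 and 10.89 with PBS and *Alivec*Gap. With NCGap, *Utp4* had 11.07, 11.10 and 11.10 with AngII, against 10.66, 10.63 and 10.80 with PBS. Its AngII arrays were all above its PBS arrays, by 0.35 (SE 0.0662, adjusted p = 0.0019) with *Alivec*Gap and 0.39 (SE 0.0662, adjusted p = 0.00077) with NCGap.

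*Utp20*, a large scaffold protein of the same particle, had log2 signals of 8.67, 8.76 and 8.71 with AngII and *Alivec*Gap, against 8.66, 8.83 and 8.63 with PBS and *Alivec*Gap. Its NCGap arrays gave 8.83, 8.89 and 8.84 with AngII, against 8.68, 8.62 and 8.58 with PBS. The groups overlapped with *Alivec*Gap (log2 change 0.00, 95% interval -0.15 to 0.15) and were apart with NCGap (0.23, SE 0.0688, adjusted p = 0.023). The call with NCGap was kept in 16 of 20 alternatives and lost, among others, without NCGap PBS replicate 2 (adjusted p = 0.051), NCGap PBS replicate 3 (0.066) or NCGap AngII replicate 2 (0.077), with log2 changes of 0.20 to 0.29 over all settings tried. *Ddx10*, a helicase, gave 8.47, 8.45 and 8.26 with AngII and *Alivec*Gap, against 8.29, 8.25 and 8.34 with PBS and *Alivec*Gap. With NCGap, *Ddx10* gave 8.69, 8.62 and 8.41 with AngII, against 8.34, 8.25 and 8.60 with PBS. The treatments overlapped for *Ddx10* under both GapmeRs, and its changes of 0.10 (-0.12 to 0.32) with *Alivec*Gap and 0.18 (-0.05 to 0.40) with NCGap did not pass the test. *Nob1* and *Ltv1* were also not called, whereas *Bysl*, another factor of 40S maturation, was called with both GapmeRs. *Nob1*, the nuclease that trims the end of the 18S RNA, differed by 0.00 (-0.15 to 0.15) with *Alivec*Gap and -0.00 (-0.16 to 0.15) with NCGap, and *Ltv1*, an export and maturation factor, by 0.08 (-0.09 to 0.26) with *Alivec*Gap and 0.15 (-0.02 to 0.33) with NCGap.

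**Figure D3:**
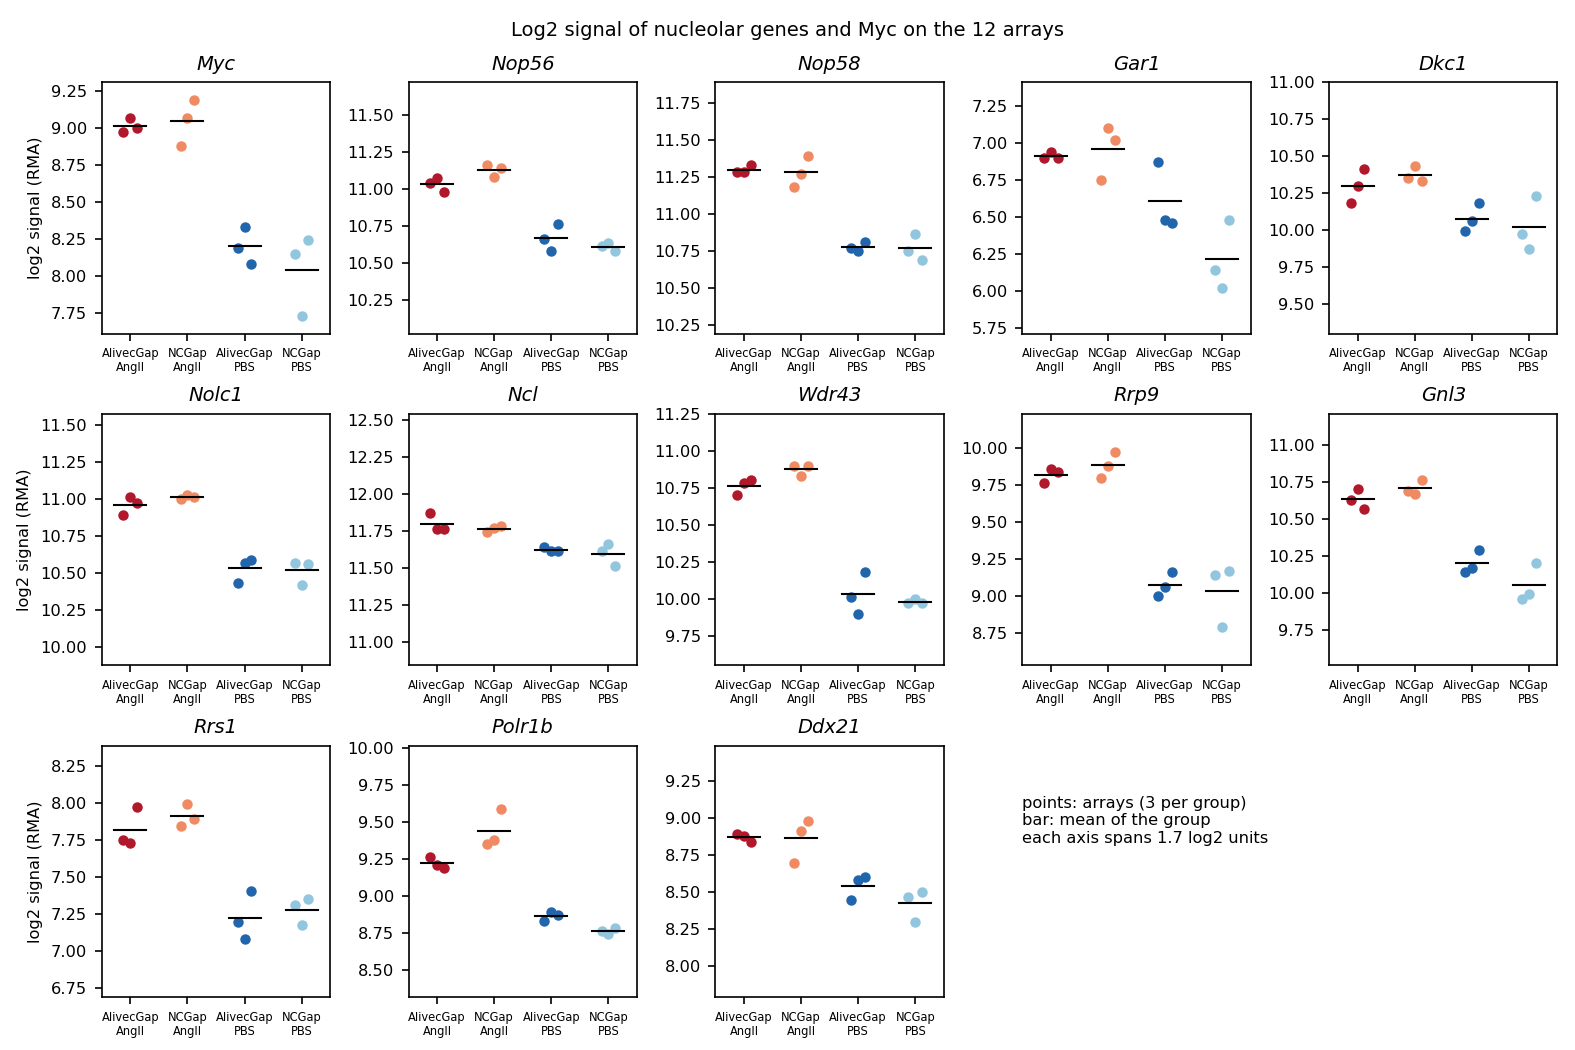
Log2 signals of *Myc* and 12 genes, the 2 of smallest p for AngII under NCGap in each role, on the 12 arrays. Points are arrays, 3 in each group, bars are group means, and each vertical axis spans the same length on the log2 scale. In every panel except those of *Gar1* and *Dkc1* all 6 AngII arrays lie above all 6 PBS arrays. Picking the 12 genes by this p favors such a separation, and its share over all probe sets was not counted.

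The factors of 60S maturation were higher with AngII in 6 of 9 genes under *Alivec*Gap and in 7 of 9 under NCGap. *Gnl3*, the GTPase nucleostemin, had log2 signals of 10.63, 10.70 and 10.57 with AngII and *Alivec*Gap, against 10.14, 10.17 and 10.29 with PBS and *Alivec*Gap. With NCGap the signals of *Gnl3* were 10.69, 10.67 and 10.76 with AngII, against 9.96, 9.99 and 10.20 with PBS. No PBS array reached an AngII array, and the change was 0.44 (SE 0.0778, adjusted p = 0.0015) with *Alivec*Gap and 0.66 (SE 0.0778, adjusted p = 4.9e-05) with NCGap. *Rrs1*, which helps to bring the 5S RNA particle into the subunit, gave 7.75, 7.73 and 7.97 with AngII and *Alivec*Gap, against 7.19, 7.08 and 7.40 with PBS and *Alivec*Gap. In NCGap cells *Rrs1* gave 7.84, 7.99 and 7.89 with AngII, against 7.31, 7.17 and 7.35 with PBS. It was likewise apart in all arrays, by 0.59 (SE 0.0961, adjusted p = 0.00075) with *Alivec*Gap and 0.63 (SE 0.0961, adjusted p = 0.00038) with NCGap.

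*Bop1*, *Wdr12* and *Pes1* encode a complex needed for the large subunit RNA, and they were not called alike. *Bop1* changed by 0.45 with *Alivec*Gap (adjusted p = 0.0043) and by 0.53 with NCGap (adjusted p = 0.0012). *Wdr12* had log2 signals of 9.94, 10.01 and 10.03 with AngII and *Alivec*Gap, against 9.79, 9.67 and 9.84 with PBS and *Alivec*Gap. With NCGap, *Wdr12* had 9.96, 10.08 and 10.09 with AngII, against 9.53, 9.72 and 9.62 with PBS. Its AngII arrays were all above its PBS arrays, by 0.23 (SE 0.0738, adjusted p = 0.038) with *Alivec*Gap and 0.42 (SE 0.0738, adjusted p = 0.00095) with NCGap. The call with *Alivec*Gap was kept in 12 of 20 alternatives and lost, among others, without *Alivec*Gap PBS replicate 1 (adjusted p = 0.069) or 2 (0.15) and without *Alivec*Gap AngII replicate 1 (0.056), 2 (0.1) or 3 (0.1). *Pes1* differed by 0.23 (0.05 to 0.42, adjusted p = 0.065) with *Alivec*Gap and by 0.14 (-0.05 to 0.32) with NCGap. Its adjusted p with *Alivec*Gap was 0.043 without *Alivec*Gap PBS replicate 3 and 0.042 without *Alivec*Gap AngII replicate 1.

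Among the other 60S factors, *Nop2*, a methyltransferase of the large subunit RNA, changed by 0.40 with *Alivec*Gap (adjusted p = 0.011) and by 0.64 with NCGap (adjusted p = 0.00045). *Noc3l* changed by 0.29 with *Alivec*Gap and by 0.49 with NCGap, and the call with *Alivec*Gap was kept in 15 of 20 alternatives and lost, among others, without *Alivec*Gap PBS replicate 1 (adjusted p = 0.081) or 2 (0.081) and without *Alivec*Gap AngII replicate 1 (0.065) or 3 (0.1). *Noc2l* was not called with *Alivec*Gap (0.09, 95% interval -0.09 to 0.26) and was called with NCGap (0.27, adjusted p = 0.025). The call of *Noc2l* was kept in 14 of 20 alternatives and lost, among others, without NCGap PBS replicate 2 (adjusted p = 0.086) or NCGap AngII replicate 2 (0.08) or 3 (0.068). *Nop16* differed by 0.09 with either GapmeR (-0.07 to 0.25 in both).

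Of Pol I and its nucleolar regulators, 2 of 4 genes were higher with AngII under *Alivec*Gap and 3 of 4 under NCGap. *Polr1b*, a subunit of the catalytic core of Pol I, had log2 signals of 9.26, 9.21 and 9.19 with AngII and *Alivec*Gap, against 8.83, 8.89 and 8.87 with PBS and *Alivec*Gap. With NCGap, *Polr1b* had 9.35, 9.38 and 9.59 with AngII, against 8.76, 8.74 and 8.78 with PBS. All AngII arrays were above all PBS arrays, and the AngII arrays of *Alivec*Gap were below those of NCGap. The change was 0.36 (SE 0.07, adjusted p = 0.0027) with *Alivec*Gap and 0.68 (SE 0.07, adjusted p = 1.5e-05) with NCGap. *Polr1a*, the other subunit of the core, differed by 0.19 (-0.00 to 0.38) with *Alivec*Gap and 0.14 (-0.05 to 0.34) with NCGap and was not called.

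*Ddx21*, a helicase that binds ribosomal DNA and snoRNAs, gave 8.89, 8.88 and 8.84 with AngII and *Alivec*Gap, against 8.45, 8.58 and 8.60 with PBS and *Alivec*Gap. *Ddx21* in NCGap cells gave 8.70, 8.91 and 8.98 with AngII, against 8.47, 8.30 and 8.50 with PBS. The groups did not overlap, and the change was 0.33 (SE 0.0852, adjusted p = 0.014) with *Alivec*Gap and 0.44 (SE 0.0852, adjusted p = 0.0019) with NCGap. Without *Alivec*Gap PBS replicate 1 the call of *Ddx21* with *Alivec*Gap was lost (adjusted p = 0.058). *Mybbp1a*, a nucleolar regulator of transcription, had a value of 0.27 with *Alivec*Gap, which did not pass the test (adjusted p = 0.081), and was higher by 0.34 with NCGap (adjusted p = 0.027). The value with *Alivec*Gap passed in 6 of 20 alternatives, among them without NCGap PBS replicate 2 (adjusted p = 0.038) or 3 (0.029). The call with NCGap was kept in 14 of 20 and lost, among others, without NCGap PBS replicate 1 (adjusted p = 0.073) or 2 (0.097) and without NCGap AngII replicate 2 (0.071) or 3 (0.074).

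The knockdown was then compared with the control GapmeR in cells given AngII. None of the 33 genes was called, and 0.818% of all probe sets (121) were, a share at which a count of 0 in 33 does not stand apart. The 121 calls fell to 18, 19 and 20 without *Alivec*Gap AngII replicate 1, *Alivec*Gap AngII replicate 3 and NCGap AngII replicate 2. None of the 33 passed the study thresholds, which 6.1% of all probe sets passed, and 1 gene had an unadjusted p under 0.05, beside 11.6% of all probe sets. This was *Polr1b*, which was lower on all 3 *Alivec*Gap arrays than on the 3 NCGap arrays, with a log2 difference of -0.22 (SE 0.07, adjusted p = 0.21). Next in p were *Utp20*, also lower on all 3 *Alivec*Gap arrays, at -0.14 (95% interval -0.29 to 0.01, adjusted p = 0.46), and *Ddx10*, whose groups overlapped, at -0.18 (-0.41 to 0.04, adjusted p = 0.54). The *Alivec*Gap arrays were all below the NCGap arrays in 6 of 33 genes, beside 9.65% of all probe sets, and all above them in 1 (*Utp4*, 0.10, -0.04 to 0.25), beside 8.6%. *Myc* differed by -0.03 (-0.30 to 0.24). Of the 33 differences, 23 were below 0, beside 48.9% of all probe sets, with a median of -0.05. The count was 20 to 28 with each array left out in turn, and the median was -0.02 without NCGap AngII replicate 3, -0.03 without *Alivec*Gap AngII replicate 1 and -0.08 without NCGap AngII replicate 1.

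In cells given PBS, none of the 33 genes was called in *Alivec*Gap against NCGap, and 0.399% of all probe sets (59) were, again too few for a count of 0 in 33 to stand apart. The 59 calls fell to 3 without NCGap PBS replicate 1 and to 4 without *Alivec*Gap PBS replicate 3. *Gar1* alone passed the study thresholds, which 4.93% of all probe sets passed, and it alone had an unadjusted p under 0.05, beside 9.64% of all probe sets. Its difference was 0.39 (SE 0.137, adjusted p = 0.34), and the groups overlapped, since *Alivec*Gap replicates 2 and 3 were at 6.48 and 6.46 and NCGap replicate 3 was at 6.48. *Utp4* at 0.14 (95% interval -0.01 to 0.28, adjusted p = 0.54) and *Wdr12* at 0.14 (-0.02 to 0.31, adjusted p = 0.57) followed in p, with overlapping groups. *Myc* differed by 0.16 (-0.11 to 0.43). The median difference was 0.07, and 7 of 33 were below 0, beside 49% of all probe sets. Without NCGap PBS replicate 2, 12 were below 0 with a median of 0.03, without *Alivec*Gap PBS replicate 3 the count was 11, and without NCGap PBS replicate 3 the median was 0.11. The lowest bound of the 33 intervals was -0.43 with AngII and -0.33 with PBS, and the highest was 0.26 with AngII and 0.69 with PBS.

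**Figure D4:**
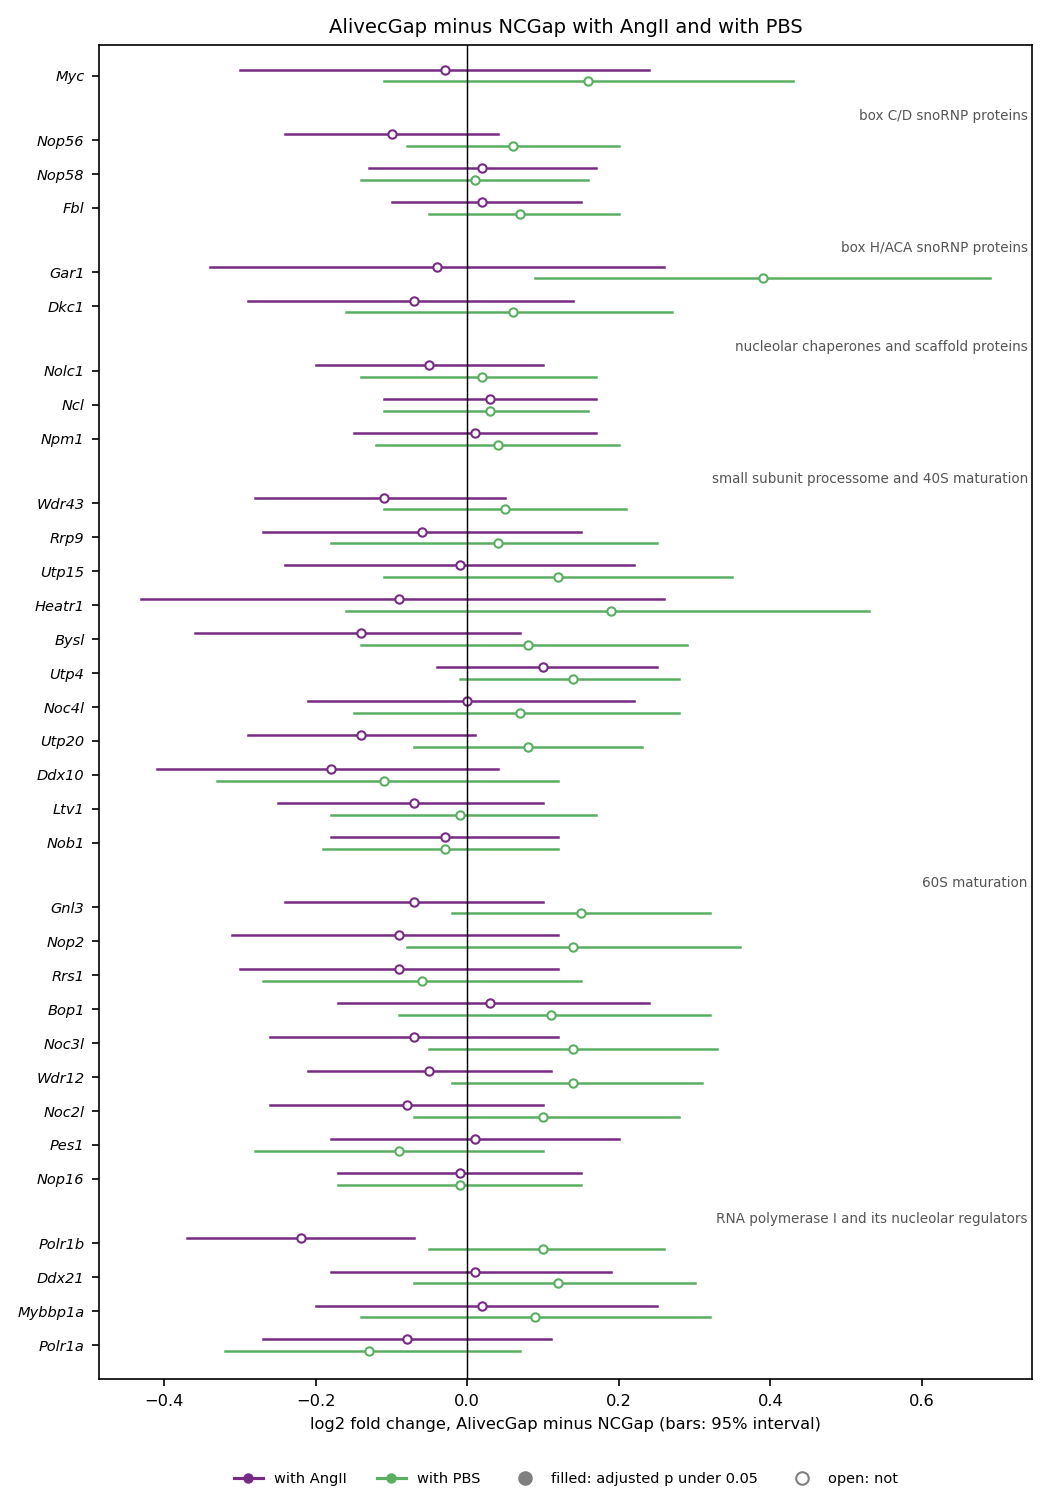
Knockdown effect on each of the 33 genes, by role. The horizontal axis gives the log2 fold change of *Alivec*Gap over NCGap, points are estimates in cells given AngII (purple, above) and PBS (green, below), and bars are 95% intervals. All points are open, as none had an adjusted p under 0.05, and *Polr1b* with AngII and *Gar1* with PBS are the only intervals that leave out 0.

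Whether the AngII effect itself differed between the GapmeRs was tested as an interaction, the AngII effect with *Alivec*Gap minus that with NCGap. None of the 33 genes was called, as was none of the 14796 probe sets. An unadjusted p under 0.05 was found for 5.5% of all probe sets and for 3 of the 33 genes, *Polr1b* (-0.33, SE 0.099, adjusted p = 0.88), *Utp20* (-0.23, SE 0.0973, adjusted p = 0.9) and *Gar1* (-0.43, SE 0.193, adjusted p = 0.9). Of these, *Polr1b* and *Gar1* passed the study thresholds, beside 4.68% of all probe sets. The other genes called under NCGap and not under *Alivec*Gap were not called here either, with differences of -0.13 (95% interval -0.43 to 0.17) for *Dkc1*, -0.07 (-0.39 to 0.25) for *Mybbp1a*, -0.18 (-0.43 to 0.07) for *Noc2l* and -0.05 (-0.23 to 0.12) for *Fbl*. The estimate was -0.19 (-0.57 to 0.19) for *Myc*.

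Over the 33 genes the interaction estimate was below 0 in 28, beside 49.9% of all probe sets, with a median of -0.10. The count was 24, with a median of -0.04, without NCGap PBS replicate 2, the array that was lowest for 16 of the genes, and 24 to 31 over all arrays left out in turn. The interaction and the knockdown comparisons use the same arrays as the AngII comparisons and are not separate measurements.

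Other genes of ribosome production were counted in the same comparisons of AngII with PBS. Of 88 further ribosome biogenesis factors, 40 were higher (45.5%) and 2 were lower with *Alivec*Gap, beside 10.8% and 15.6% of all probe sets. The 2 were the late 60S factor *Nop53* (-0.25, adjusted p = 0.015) and the helicase *Ddx47* (-0.23, adjusted p = 0.04). With NCGap, 51 of the 88 were higher (58%) and 1 was lower, beside 13.3% and 17.9% of all probe sets. The median log2 change there was 0.30. The smallest p values with NCGap belonged to *Nifk* (0.72, SE 0.0588, adjusted p = 2.4e-06), a binding partner of the proliferation marker Ki-67, and to the 60S factors *Brix1* (0.77, SE 0.083, adjusted p = 2.3e-05) and *Nip7* (0.81, SE 0.0875, adjusted p = 2.4e-05). *Nop53* was again lower (-0.37, SE 0.0665, adjusted p = 0.0011).

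Of 11 other subunits and factors of Pol I, 5 were higher (45.5%) and none was lower with AngII under *Alivec*Gap. The shares over all probe sets were 10.8% and 15.6%. Under NCGap 6 of the 11 were higher (54.5%, beside 13.3%) and 1 was lower (beside 17.9%), with a median of 0.25. There the subunits *Polr1f* (0.79, SE 0.0834, adjusted p = 1.9e-05), *Polr1g* (1.18, SE 0.142, adjusted p = 5.6e-05) and *Polr1e* (0.84, SE 0.135, adjusted p = 5e-04) rose, and *Ubtf*, which binds the ribosomal DNA promoter, fell by 0.23 (adjusted p = 0.045). Pol III makes the 5S and transfer RNAs. Of its 17 genes 2 were higher (11.8%, beside 10.8% of all probe sets) and 4 were lower (beside 15.6%) under *Alivec*Gap. With NCGap 3 were higher (17.6%, beside 13.3%) and 5 were lower (beside 17.9%), with a median of -0.07. Under NCGap *Gtf3c5* was lower (-0.62, adjusted p = 0.00023), and *Bdp1* (0.67, adjusted p = 0.00058) and *Polr3e* (0.40, adjusted p = 0.0012) were higher. *Maf1*, a repressor of Pol III that was picked out after its value was seen, was also lower (-0.45, adjusted p = 0.0078).

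The proteins of the ribosome itself were counted in the same way. Of 68 cytosolic ribosomal protein genes, none was called with AngII under *Alivec*Gap, where 1 had an unadjusted p under 0.05. Over all probe sets 10.8% were called higher and 15.6% lower there. Of the 68 changes 67 were below 0, beside 57.3% of all probe sets, and in 14 genes the AngII arrays were all below the PBS arrays, beside 26.6%. Under NCGap none of the 68 was higher and 2 were lower, beside 13.3% and 17.9% of all probe sets. The median was -0.06, beside -0.05 over all probe sets, and the range was -0.25 to 0.04. The 2 were *Rps15* (-0.23, SE 0.0748, adjusted p = 0.036) and *Rpl15* (-0.19, SE 0.0636, adjusted p = 0.036), and *Rps29* followed (-0.25, SE 0.0994, adjusted p = 0.08). Under NCGap 7 of the 68 had an unadjusted p under 0.05, 65 changes were below 0, beside 58.7% of all probe sets, and in 23 genes the AngII arrays were all below the PBS arrays, beside 25.2%. Signs of changes this small depend on the scaling of the arrays. With the arrays centred on the same median, the median over all probe sets under NCGap was 0.0087, against -0.049 as deposited. The 68 genes were not counted again in that setting. CACGTG was found in 7.81% of the 64 promoter windows of these genes, 25.3% of the 91 windows of the further biogenesis factors, 7.69% of the 13 of the other Pol I genes and 28.6% of the 14 of the Pol III genes. For the variant CACGCG or CGCGTG the shares were 15.6%, 25.3%, 38.5% and 21.4% in the same order. Of the windows of the Myc network and Myc targets below, CACGTG was in 30.8% and 26.9%, and the variant in 30.8% and 34.6%. The median AngII change under NCGap was 0.25 for the other Pol I genes and -0.07 for the Pol III genes. A link between either motif and the AngII change was not tested.

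Of 8 genes of the Myc network, 4 were higher (50%) and 1 was lower with AngII under *Alivec*Gap. With NCGap 3 were higher (37.5%) and 1 was lower. Of all probe sets, 10.8% were higher and 15.6% were lower under *Alivec*Gap, and 13.3% and 17.9% under NCGap. Under NCGap *Mycl*, a relative of *Myc*, rose by 0.88 (SE 0.0929, adjusted p = 1.9e-05), the antagonist *Mnt* rose by 0.40 (SE 0.0849, adjusted p = 0.0037), and the antagonist *Mxi1* fell by 0.71 (SE 0.153, adjusted p = 0.0038). *Mlx* was the third gene that was higher (0.57, adjusted p = 0.0051), and *Max*, the partner of Myc on DNA, differed by 0.02 (SE 0.0718, adjusted p = 0.89). Of 23 known targets of Myc outside the nucleolus, 8 were higher (34.8%) and none was lower under each GapmeR. Those of smallest p under NCGap were *Slc7a5* (1.59, SE 0.0949, adjusted p = 1.3e-07) and *Slc3a2* (0.73, SE 0.0663, adjusted p = 5.7e-06), the light and heavy chain of an amino acid transporter, and *Odc1* (0.61, SE 0.0742, adjusted p = 6.4e-05), the rate-limiting enzyme of polyamine synthesis. None of the genes in these lists was called in either knockdown comparison or in the interaction, and of the 88 further biogenesis factors 7 had an unadjusted p under 0.05 in the knockdown with AngII, 6 in that with PBS and 6 in the interaction, beside 11.6%, 9.64% and 5.5% of all probe sets.

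**Figure D5:**
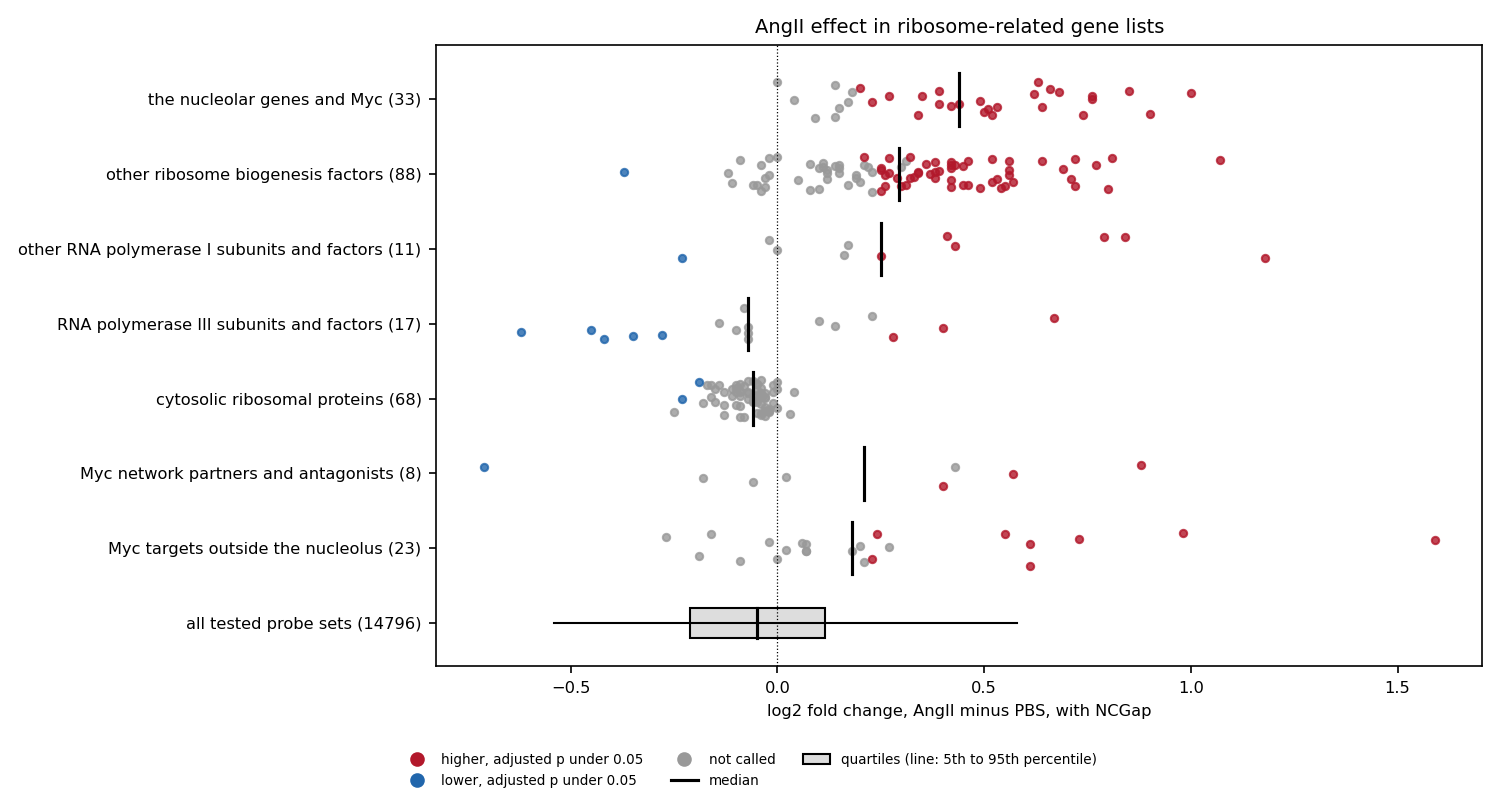
AngII effect under NCGap in gene lists of ribosome production. The horizontal axis gives the log2 fold change of AngII over PBS, points are genes (red, higher; blue, lower; gray, not called), black lines are medians, and the box gives the quartiles of all 14796 tested probe sets with a line from the 5th to the 95th percentile (-0.54 to 0.58). The medians are 0.44 for the nucleolar genes and *Myc*, 0.30 for the further biogenesis factors and -0.06 for the cytosolic ribosomal proteins.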

How the data were processed

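Labelled cDNA from the total RNA of RVSMCs was hybridized to 12 arrays (Clariom S, rat). The authors deposited log2 signals for 23188 probe sets, normalized in the Partek software by Robust Multichip Average (RMA), and this normalization was kept. Gene symbols came from the platform annotation and gave 15049 probe sets 1 symbol and 8139 none. A probe set was tested if 3 or more arrays reached a log2 signal of 6, after the signal minimum of the methods, which left 14796. The methods name an analysis of variance without its terms, so lmFit and eBayes of limma 3.58.1 in R 4.3.3 were run on the 4 group means, with Benjamini-Hochberg adjustment over all tested probe sets, and checked on simulated data. The number of arrays limits the precision, with 95% intervals from the same fit.

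Values on every array are given for *Myc*, for the 2 genes of smallest p for AngII under NCGap in each role, and for the 3 of smallest p in each knockdown comparison. Other lists are given by counts and the 3 genes of smallest p. The genes, lists and tests were chosen with earlier results of these data known. Alternatives changed the filter, the samples and prior of the fit, the scaling, array weights or the replicate term, or left out an array. The study thresholds, a different call rule, were counted apart from them. Promoters were RefSeq windows of GRCr8.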

Additional observations from a re-analysis of the deposited data

How the results depend on the processing

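The 20 alternatives all kept the adjusted p as the call rule. Over these 20, 14 of the 19 genes higher with AngII under *Alivec*Gap were called in every one, and 20 of the 25 under NCGap. The 19 and the 25 genes kept their direction in all of them. *Heatr1*, *Noc4l*, *Wdr12*, *Noc3l* and *Ddx21* lost the call somewhere under *Alivec*Gap, and *Fbl*, *Dkc1*, *Utp20*, *Noc2l* and *Mybbp1a* under NCGap. Without any filter on low signals 15 genes were called under *Alivec*Gap and 21 under NCGap, and with a prior that follows the signal 24 and 26. With each array left out in turn, 15 to 21 genes were called under *Alivec*Gap, the lowest without *Alivec*Gap PBS replicate 1, *Alivec*Gap PBS replicate 2 or *Alivec*Gap AngII replicate 3, and 20 to 25 under NCGap, the lowest without NCGap AngII replicate 2. Both knockdown comparisons and the interaction gave 0 to 0 calls in this way. At the study thresholds the count was 1 for the knockdown with PBS and 2 for the interaction, by the construction of that rule, which uses unadjusted p values. By that rule *Wdr12* with *Alivec*Gap and *Fbl* and *Utp20* with NCGap lost the AngII call, and *Gar1* and *Mybbp1a* with *Alivec*Gap gained it.

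Same-numbered arrays had correlations of their deviations of -0.09 to 0.32, not all above 0.1, and were not treated as pairs. For 9 of the 12 arrays the mean correlation with the other groups, taken by replicate number, was highest for their own number. Each array was set against 3 replicate numbers, so that some such matches arise by chance, and the 12 outcomes share the same correlations. The count is a hint from the data and not from the design. With the replicate number as a block, 20 genes were called under *Alivec*Gap and 25 under NCGap, and none in the other comparisons. The arrays hold no depth, the change of a gene is bounded by 3 arrays in each group, and the interval of *Gar1*, whose signals were near the minimum, was among the wider.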
